A study of Mus musculus with 9 samples.

Results

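The enzymes that make prostaglandins and thromboxane, the enzyme that breaks prostaglandins down and a pair of prostaglandin E2 receptors were followed in RNA from sorted mouse lung cells. Their 10 genes were chosen by name for their roles in the pathway (Pla2g4a, Ptgs1, Ptgs2, Ptges, Ptgds, Ptgis, Tbxas1, Hpgd, Ptger2 and Ptger4), out of 54361 genes in the deposited table. Earlier results of these data were known when the choice was made. All 10 passed the filter on low values. The 9 libraries are described by their labels as lung eosinophils, granulocytes of type 2 immunity, from mice of strain C57BL/6. The Siglec-F high libraries (titled iEOS, n = 3) and the Siglec-F int libraries (titled rEOS, n = 3) came from mice that had received PyMT tumour cells through the tail vein, which seeds tumours in the lung. Mice that received saline by the same route gave the libraries labelled naive (n = 3). Each library pooled cells of 3 to 4 mice, so n counts pools, and the spread between pools includes their preparation. The age and sex of the mice and the time between injection and sorting are not given in the sources used here.

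Prostanoids are short-lived lipid signals made from arachidonic acid. A phospholipase frees the fatty acid from membranes, a cyclooxygenase (Ptgs1 or Ptgs2) turns it into prostaglandin H2, and terminal synthases then make prostaglandin E2, prostaglandin D2, prostacyclin or thromboxane A2, each with receptors of its own. In the lung these lipids act on airway and vessel tone and on leukocytes. Prostaglandin E2 acts through the EP receptors to restrain or redirect immune cells, and prostaglandin D2, a mast cell product, attracts eosinophils through the receptor encoded by Ptgdr2.

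The libraries held between 4941900 and 7171066 reads in the Siglec-F high group, 7517513 and 12495639 in the Siglec-F int group and 2205949 and 5529406 in the naive group. Some genes that define eosinophils were scarce in all 9. The Siglecf gene lay between 3.58 and 17.6 normalized counts in the high libraries, 6.98 and 20.2 in the int libraries and 4.18 and 31.3 in the naive libraries, and Ccr3, the eotaxin receptor, had 0 reads in the naive libraries. Others on the list of 8 eosinophil genes were not scarce throughout, with Ear2, a ribonuclease gene, at 283 to 568 in the high libraries, 117 to 269 in the int libraries and 144 to 469 in the naive libraries, and the granule gene Prg2 at 379.5 in high library 3 and 106 in int library 3. The eosinophil list summed to 507 to 1110.5 in the high libraries, 183 to 404 in the int libraries and 208 to 724 in the naive libraries, with 0 of 5 tested genes called. Over all genes tested, 31.3% were called between high and naive, 22.3% between int and naive and 0% between high and int. A list of 10 pigment cell genes summed to 209 to 1056 in the high libraries, 369 to 699.7 in the int libraries and 64410 to 72656 in the libraries labelled naive. The pigment levels do not match the labelled cell type, so each group is named below by its label only. Siglec-F high library 1 stood apart from the other high libraries, with a mean correlation of 0.734 to its own group, against 0.813 to 0.945 for the remaining libraries.

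Sequences upstream of a RefSeq start site (mouse build GRCm38.p6) were found for 9 of the 10 genes. Ptgis had no entry. For Pla2g4a and Ptgs2, the 250 bases before the start site are shown, 5′ to 3′ on the strand of the gene, because these genes lie near each other and moved together. For Ptgds, the gene with the largest change, 30 bases around its motif match are shown. Its window before the RefSeq start site (25469750 to 25469999) lies inside the gene as annotated by GENCODE, which ends at 25470046 on the minus strand. Capitals mark the motif matches.
Pla2g4a (chr1:149961291-149961540, minus strand): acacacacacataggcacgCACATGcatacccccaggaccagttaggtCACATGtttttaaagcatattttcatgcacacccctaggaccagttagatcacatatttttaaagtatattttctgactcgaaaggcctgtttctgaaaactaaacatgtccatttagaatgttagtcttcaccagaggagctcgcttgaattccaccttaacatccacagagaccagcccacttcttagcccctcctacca
Ptgs2 (chr1:150099781-150100030, plus strand): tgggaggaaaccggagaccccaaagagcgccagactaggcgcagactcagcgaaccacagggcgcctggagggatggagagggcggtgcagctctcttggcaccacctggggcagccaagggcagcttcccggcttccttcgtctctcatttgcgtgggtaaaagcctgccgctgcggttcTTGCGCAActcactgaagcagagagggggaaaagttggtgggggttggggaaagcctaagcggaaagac
Ptgds (chr2:25469766-25469795, minus strand): gaggccaagccTGACTCAtaaatagggggt
In Pla2g4a, both runs of capitals are the E box CATGTG read on the other strand, at bases 231 to 226 and 202 to 197 before the start site. This motif occurred on either strand in 12.3% of 32851 RefSeq windows of the same length. In Ptgs2, the capitals are the motif TTGCNNAA, the shape bound by C/EBP proteins, at bases 69 to 62 on both strands, a motif found in 9.56% of windows. In Ptgds, the capitals are TGANTCA, the shape bound by AP-1 factors, at bases 35 to 29, a motif found in 6.75% of windows. A TATA box (TATAAA), a CRE core (TGACG), the E box CACGTG and an NF-kB-like motif (GGG, any 2 bases, TT, any base, CC) were also searched on both strands and had no match in the 250 bases of these 3 windows, where these letters occurred in 12.4%, 17.8%, 6.02% and 4.11% of all windows. Tbxas1 had TATAAA at bases 11 to 6 on its own strand and, overlapping it, at 13 to 8 on the other, and TGANTCA at 61 to 55. The RefSeq start site of Tbxas1 used here (38918986) also lies inside the annotated gene, which begins at 38875404. Pla2g4a has a second RefSeq start site, at 149922439, with TATAAA on the other strand at bases 200 to 195 before it. Only the 250 bases before each start site were searched, so a missing match says nothing about sequence outside them. The C/EBP and AP-1 motifs were chosen after the sequences were seen, so their shares of windows do not test their matches. A match is a description of the letters and not evidence of binding.

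Relative to the libraries labelled naive, those from mice given tumour cells held far more RNA of the phospholipase Pla2g4a, which frees arachidonic acid, and of the cyclooxygenases that turn it into prostaglandin H2. Pla2g4a was 31.6-fold higher in the Siglec-F high libraries and 20.4-fold higher in the int libraries, and Ptgs2 18.5-fold and 15.6-fold higher. Ptgs1, the constitutive cyclooxygenase, was about 5-fold higher in both. Ptgds, a prostaglandin D synthase, went the other way and was 389.6-fold and 182-fold lower. Values are deposited normalized counts per library. Fold changes compare means of log2(value + 1) between groups and are given with their standard error. On this scale the added 1 shrinks the change of low genes, while a single very low library widens it. Genes were called at an adjusted p below 0.05 (limma, two-sided, adjusted over 13642 genes). These are levels per library, so that fewer cells with an RNA and less of that RNA per cell cannot be told apart.

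Against the naive libraries, 6 of the 10 genes were called in the Siglec-F high libraries (5 higher, 1 lower), compared with 31.3% of all genes tested (14.7% higher, 16.6% lower). Their median log2 fold change was 1.93, against -0.11 for all genes tested. In 7 of the 10 the high and naive libraries did not overlap (6 above, 1 below), against 46.4% of all genes (20.2% above, 26.3% below). Between Siglec-F int and naive, 5 were called, 4 higher and 1 lower, against 22.3% of all genes tested (12% higher, 10.3% lower), with a median of 1.90 against -0.02, and 7 did not overlap (6 above, 1 below), against 50.9% (23.3% above, 27.6% below). Between Siglec-F high and int, 0 of the 10 were called, against 0% of all genes tested. Both comparisons with naive use the same 3 naive libraries, so their values are given side by side and are not independent. Because the genes were chosen with earlier results of these data known, these shares describe the list and do not test it.

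**Figure D1:**
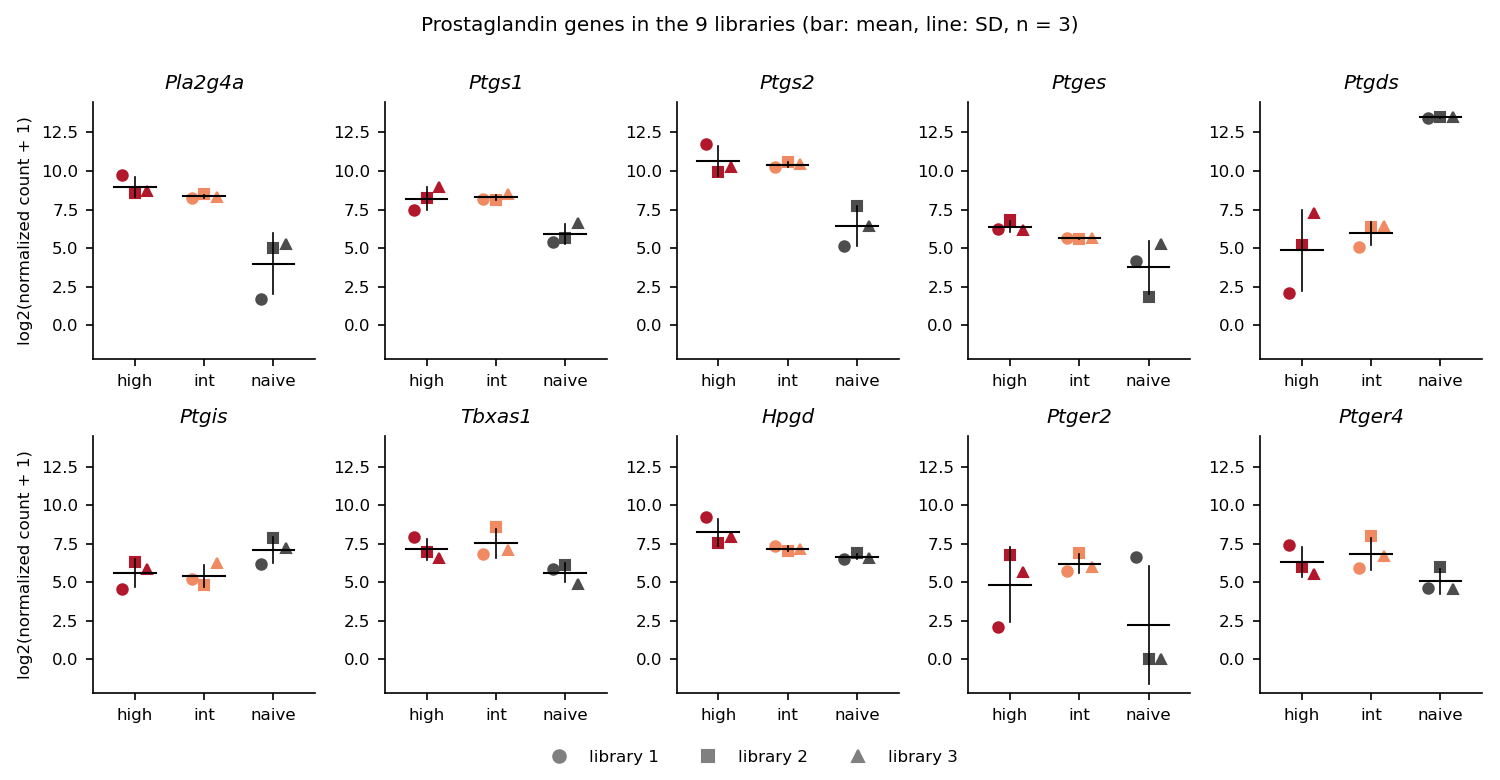
Each panel shows 1 gene, with log2(normalized count + 1) on the vertical axis and 1 point per library in the Siglec-F high, Siglec-F int and naive groups. Bars are means and lines SD (n = 3). Pla2g4a, Ptgs1, Ptgs2, Ptges, Tbxas1 and Hpgd lie above the naive libraries in all 6 libraries from tumour-injected mice, and Ptgds lies below them in all 6.

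The cytosolic phospholipase A2 Pla2g4a (ENSMUSG00000056220.14; chromosome 1, 149829618 to 149961290, minus strand, GRCm38) cuts arachidonic acid out of membrane phospholipids. Its normalized counts were 847, 373 and 408 in the high libraries, 307, 359.8 and 311 in the int libraries and 2.29, 31.3 and 37.6 in the naive libraries. All 6 libraries from tumour-injected mice lay above the highest naive library, and high library 1 stood highest. The log2 fold change was 4.98 ± 0.79 between high and naive (adjusted p = 0.00183) and 4.35 ± 0.79 between int and naive (adjusted p = 0.00422). The naive values rested on 2, 12 and 45 reads, and by summed reads the ratio was 20.7 in the high group (95% counting interval 16.0 to 27.3) and 13.5 in the int group (10.5 to 17.8). Without naive library 1 the changes were 3.84 and 3.21, and without naive library 3 they were 5.62 and 4.98, all still called.

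Ptgs2 (ENSMUSG00000032487.8; chromosome 1, 150100031 to 150108227, plus strand), the inducible cyclooxygenase COX-2, stood at 3446, 970.1 and 1253 normalized counts in the high libraries, 1201, 1519 and 1374 in the int libraries and 34.4, 214 and 86.0 in the naive libraries. The lowest library from a tumour-injected pool was above the highest naive one, and high library 1 was again highest. Its log2 fold change was 4.21 ± 0.62 between high and naive (adjusted p = 0.00126) and 3.96 ± 0.62 between int and naive (adjusted p = 0.00214). Leaving out naive library 1 gave 3.56 and 3.31, and leaving out naive library 2 gave 4.86 and 4.61. Ptgs1 (ENSMUSG00000047250.13; chromosome 2, 36230426 to 36252272, plus strand), the constitutive cyclooxygenase COX-1 that platelets use to make thromboxane, stood at 178, 298 and 489.6 in the high libraries, 293, 284 and 362 in the int libraries and 41.3, 49.5 and 100.2 in the naive libraries. Again all 6 were above the naive libraries, but here high library 1 was the lowest of them. The log2 fold change was 2.31 ± 0.45 between high and naive (adjusted p = 0.00479) and 2.38 ± 0.45 between int and naive (adjusted p = 0.00505). The calls of Pla2g4a, Ptgs2 and Ptgs1 in both comparisons held under all 21 other settings tried.

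Other transcripts moved with these enzymes. Of 8 fibroblast markers 5 were higher and 1 lower between high and naive, and 4 higher and 1 lower between int and naive. Over all genes tested, 14.7% were higher and 16.6% lower in the first comparison, and 12% and 10.3% in the second. Their summed level lay between 22758 and 32854 in the high libraries, 9381 and 24091 in the int libraries and 5986 and 7564 in the naive libraries. Of 8 markers of monocytes and macrophages, cells that can induce Ptgs2 strongly, 4 and 5 were higher and 0 lower, with sums of 12252 to 14139 in the high libraries, 12199 to 41237 in the int libraries and 6938 to 9618 in the naive libraries. Of 5 tested markers of platelets and megakaryocytes, Pf4 and Ppbp were higher in both comparisons. Itga2b, Itgb3 and Treml1 were not called, and their means were below naive in both groups. In high, int and naive, Itga2b averaged 58.3, 65.3 and 76.2, Itgb3 45.5, 67.6 and 71.6 and Treml1 1.68, 5.28 and 15.8. The sum over all 8 listed, most of it Pf4 and Ppbp, lay between 795 and 2019 in the high libraries. It lay between 1034 and 1553 in the int libraries and 391 and 526 in the naive libraries, with Gp1bb at 0 throughout. Other marker lists did not rise. Of 8 endothelial and 8 lung epithelial markers 0 were called in either comparison with naive, and of 8 neutrophil markers 1 was lower in each. The part of any of these cells in the prostaglandin genes was not tested.

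Prostaglandin E2 is made by Ptges, the inducible microsomal synthase that works downstream of Ptgs2 (ENSMUSG00000050737.13; chromosome 2, 30889471 to 30929863, minus strand). It stood at 75.7, 110.4 and 69.9 normalized counts in the high libraries, 49.4, 48.0 and 49.7 in the int libraries and 17.2, 2.61 and 36.8 in the naive libraries. The 3 groups did not overlap, with the high libraries on top. Ptges was higher in the high libraries than in the naive ones by 2.64 ± 0.75 on the log2 scale (adjusted p = 0.0233) and was not called between int and naive (1.89 ± 0.75, adjusted p = 0.0944). The naive values rested on 15, 1 and 44 reads, and without naive library 2 the changes were 1.69 and 0.93. Without naive library 3 they were 3.38 and 2.63, and the second was then called (adjusted p = 0.0363, lowest over its alternatives, highest 0.214). The call in the high libraries was lost in a fit of only the high and naive libraries (adjusted p = 0.0662) and with high library 1 and int library 2 both left out (adjusted p = 0.0549).

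Ptgds encodes lipocalin-type prostaglandin D synthase, a secreted enzyme abundant in the brain and also made by melanocytes (ENSMUSG00000015090.13; chromosome 2, 25466709 to 25470046, minus strand). It stood at 3.29, 35.8 and 157 normalized counts in the high libraries, 33.3, 81.7 and 85.1 in the int libraries and 10949, 11387 and 11821 in the libraries labelled naive. The naive libraries differed little from each other and exceeded all 6 others by a wide margin. The log2 fold change was -8.61 ± 0.99 between high and naive (adjusted p = 0.000408) and -7.51 ± 0.99 between int and naive (adjusted p = 0.00101). The high group held 247 of its reads, the int group 525 and the naive group 28070, so by summed reads Ptgds was 174-fold lower in the high group (95% counting interval 154 to 198) and 161-fold lower in the int group (148 to 176). The change between high and naive was -7.26 with edgeR and -7.34 with DESeq2. High library 1 held 3 reads, and without it the first change was -7.22, while without high library 3 it was -9.82.

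Pigment cell genes moved with Ptgds. All 10 on the list, among them the melanosome protein gene Pmel and the melanin enzyme gene Dct, were lower in both comparisons with naive. Over all genes tested, 16.6% were lower between high and naive and 10.3% between int and naive. For every 100 normalized counts of that list, Ptgds had 1.57, 15.4 and 14.9 in the high libraries, 9.02, 19.7 and 12.2 in the int libraries and 17.0, 17.2 and 16.3 in the naive libraries. The ratio lay between 1.57 and 19.7 over the libraries from tumour-injected mice and between 16.3 and 17.2 over the naive libraries. The lowest values were those of high library 1, at 3 Ptgds reads, and int library 1, at 62. The part of pigment cells in the level of Ptgds was not tested. Hpgds, the other prostaglandin D synthase, found in mast cells and T helper type 2 cells, stood at 96.5, 35.8 and 23.0 in the high libraries, 53.7, 87.2 and 41.8 in the int libraries and 33.3, 46.9 and 53.5 in the naive libraries. These groups overlapped, and Hpgds was not called (-0.02 ± 0.58, 95% interval -1.29 to 1.25, between high and naive and 0.40 ± 0.58, interval -0.87 to 1.67, between int and naive, adjusted p = 0.985 and 0.644). The sign of the first turned under 9 of its 21 alternatives. Of 8 mast cell and basophil markers only Kit and Gata2 passed the filter, and 0 were called. Kit averaged 119, 79.4 and 29.1 in high, int and naive, and Gata2 104, 132 and 134. Among those below the filter, Tpsb2, a mast cell tryptase gene, was at 0 in all 9 libraries. Cpa3 had 9 reads in the high group, 78 in the int group and 1 in the naive group. In the same order Mcpt8 had 0, 16 and 0 reads, Fcer1a 0, 15 and 0, Ms4a2 0, 10 and 1 and Mcpt4 0, 4 and 3. The int libraries were the deepest.

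**Figure D2:**
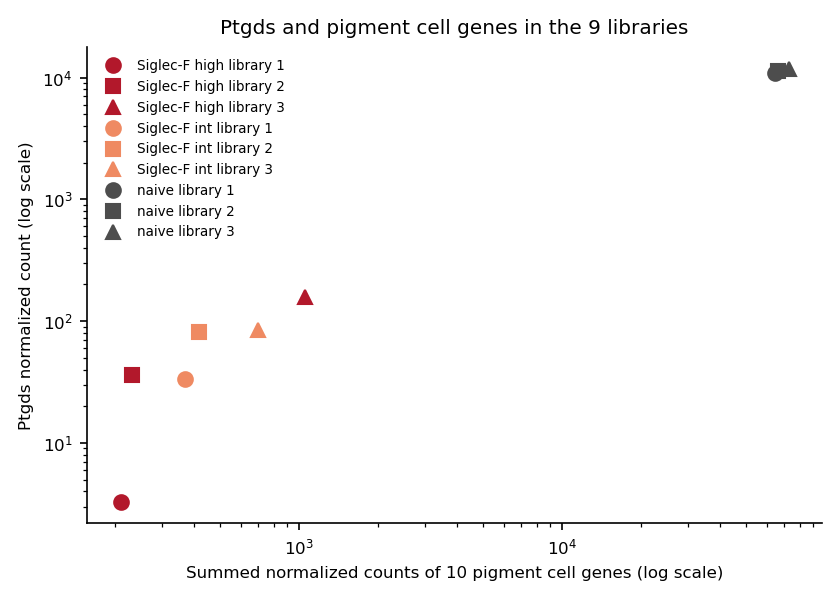
Normalized counts of Ptgds are plotted against the summed normalized counts of 10 pigment cell genes, with a log scale on both axes and 1 point per library. The naive libraries sit together at 10949 to 11821 for Ptgds and 64410 to 72656 for the pigment genes, and the 6 libraries from tumour-injected mice lie at 3.29 to 157 and 209 to 1056.

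Ptgis makes prostacyclin, the vessel-dilating prostanoid of endothelium and smooth muscle (ENSMUSG00000017969.13; chromosome 2, 167191805 to 167240604, minus strand). Its normalized counts were 23.0, 78.8 and 58.0 in the high libraries, 36.0, 27.4 and 74.3 in the int libraries and 72.2, 234 and 149 in the naive libraries. The groups overlapped only at the lowest naive library. The log2 fold change was -1.50 ± 0.62 between high and naive (adjusted p = 0.0832) and -1.68 ± 0.62 between int and naive (adjusted p = 0.0744), so neither passed. The second was called under 3 of its 21 alternatives, among them without high library 1 (adjusted p = 0.0276, lowest of its range up to 0.218).

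Tbxas1 makes thromboxane A2, the platelet activator, and is also expressed in macrophages (ENSMUSG00000029925.13; chromosome 6, 38875404 to 39084585, plus strand). It stood at 240.2, 123 and 93.8 normalized counts in the high libraries, 114, 392 and 139 in the int libraries and 56.2, 67.7 and 29.2 in the naive libraries. All 6 libraries from tumour-injected mice lay above the naive ones, and int library 2 was highest. That library also had the highest sum of monocyte and macrophage markers, at 41237. High library 1 came second for Tbxas1 with a marker sum of 13455, below int library 3 (15031.5) and high library 2 (14139). The part of these cells in the level of Tbxas1 was not tested. Tbxas1 was called higher between int and naive (1.91 ± 0.56, adjusted p = 0.0334) and missed the threshold between high and naive (1.53 ± 0.56, adjusted p = 0.0591). The int call was lost without int library 2 (1.37, adjusted p = 0.117) or int library 3 (0.0684) and without naive library 1 (0.0686) or naive library 3 (0.110), with no filter (0.0581) and with no variance trend (0.0552), and held under 15 of 21 alternatives. The change between high and naive was called under 6 of its 21 alternatives, among them equal totals (adjusted p = 0.0309), TMM factors (0.0417) and int library 2 left out (0.0438), over a range of 0.0178 to 0.177.

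Hpgd begins the breakdown of prostaglandin E2 by oxidizing it, a step known for its activity in the lung (ENSMUSG00000031613.9; chromosome 8, 56294585 to 56321043, plus strand). It stood at 604, 183 and 246 normalized counts in the high libraries, 161, 131 and 142 in the int libraries and 91.8, 117 and 96.1 in the naive libraries. As with Ptges, the 3 groups did not overlap and the high libraries were on top. Hpgd was 2.95-fold higher in the high libraries than in the naive ones (1.56 ± 0.43, adjusted p = 0.0208) and was not called between int and naive (0.51 ± 0.43, 95% interval -0.44 to 1.45, adjusted p = 0.421). The first call was lost without naive library 1 (adjusted p = 0.0607) or naive library 3 (0.0576) and in a fit of only the high and naive libraries (0.0566), over a range of 0.000793 to 0.0607.

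The EP2 and EP4 receptors, encoded by Ptger2 and Ptger4, both raise cyclic AMP in cells that meet prostaglandin E2. Ptger2 (ENSMUSG00000037759.6; chromosome 14, 44988195 to 45003820, plus strand) stood at 3.29, 107 and 49.5 normalized counts in the high libraries, 53.1, 118 and 61.4 in the int libraries and 98.6, 0 and 0 in the naive libraries. A single naive library thus reached the level of the others, and counts of 0 in naive libraries 2 and 3 allow up to 7.82 and 2.51 normalized counts (3 reads). The log2 fold change was 2.63 ± 1.68 between high and naive (adjusted p = 0.245) and 3.99 ± 1.68 between int and naive (adjusted p = 0.112), neither called. Without naive library 1 both were called, at 4.84 (adjusted p = 0.0262, range 0.0262 to 0.791) and 6.20 (0.0128, range 0.0128 to 0.672). Without naive library 2 or 3 both fell short, at 1.52 and 2.88. The first was 4.00 without high library 1 and 1.67 without high library 2. With a pseudocount of 5 the changes were 1.43 and 2.50, with edgeR 0.83 and 1.38 and with DESeq2 0.78 and 1.32.

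Ptger4 (ENSMUSG00000039942.15; chromosome 15, 5206661 to 5244187, minus strand) stood at 172, 62.0 and 45.2 normalized counts in the high libraries, 59.0, 251 and 102 in the int libraries and 24.1, 62.5 and 22.6 in the naive libraries. The groups overlapped at naive library 2, and int library 2 was highest. Neither change was called, at 1.25 ± 0.68 between high and naive (95% interval -0.25 to 2.75, adjusted p = 0.173) and 1.79 ± 0.68 between int and naive (0.30 to 3.29, adjusted p = 0.0815). The second was called with equal totals (adjusted p = 0.0354), with edgeR (0.0443), with DESeq2 (0.0196) and without high library 1 (0.0360), over a range of 0.0196 to 0.264. Ptger4 shares 82 exon bases with Ttc33 and 1015 with the pseudogene Gm15937 on the opposite strand. Ptger2 shares 246 such bases with Gm17173 and 144 with Gm49364, Ptgs1 148 with Gm43621, Ptgis 156 with 1110018N20Rik and Tbxas1 144 with Gm42962. Whether counting used strand is not stated, so reads from these bases cannot be assigned to either gene.

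**Figure D3:**
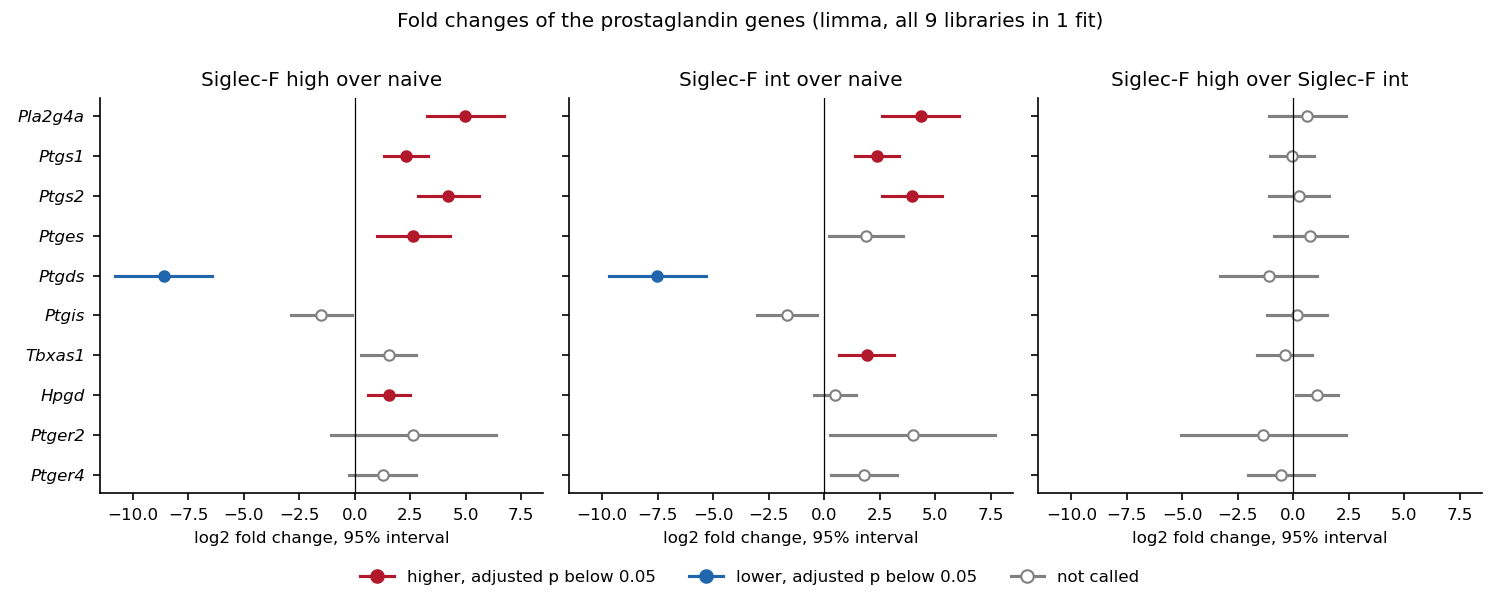
Log2 fold changes of the 10 genes with their 95% intervals are shown for Siglec-F high over naive, Siglec-F int over naive and Siglec-F high over Siglec-F int. Filled points were called. The synthesis genes Pla2g4a, Ptgs1 and Ptgs2 lie right of 0 and Ptgds left of 0 in both comparisons with naive, and no point is filled between high and int.

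Between the libraries of high and intermediate Siglec-F, both from tumour-injected mice, 0 of the 10 genes and 0 of 13642 genes were called by limma, 0 by edgeR and 6 by DESeq2. At an unadjusted p below 0.05 limma had 591 genes, of which Hpgd was the only member. Hpgd was 2.08-fold higher in the high libraries (1.06 ± 0.43, 95% interval 0.11 to 2.0, unadjusted p = 0.0320, adjusted p = 0.797), but the change was 0.55 without high library 1. The high libraries lay above the int libraries without overlap for Pla2g4a, Ptges and Hpgd, which is 3 of 10 above and 0 below, against 11.3% of all genes tested (5.52% above, 5.75% below). The intervals left room for differences in either direction, from -1.12 to 1.61 for Ptgs2, -1.11 to 2.38 for Pla2g4a, -0.89 to 2.41 for Ptges and -3.28 to 1.09 for Ptgds. That 4 genes were called in both comparisons with naive, Ptges and Hpgd only in the high one and Tbxas1 only in the int one, does not show a difference between high and int, since the direct test called none of them.

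The list of other prostanoid genes held 44 in the table, of which 37 were tested. Between high and naive 8 were called higher and 7 lower, against 14.7% and 16.6% of all genes tested, with a median of 0.42. Between int and naive 8 were higher and 2 lower, against 12% and 10.3%, with a median of 0.88. Genes that free or recycle arachidonic acid split in direction. Of 8 tested, 2 were higher and 4 lower between high and naive, and 2 higher and 2 lower between int and naive. Acsl4, which loads free arachidonic acid onto coenzyme A, stood at 1810, 578 and 620.1 normalized counts in the high libraries, 623, 490.4 and 528 in the int libraries and 67.7, 83.4 and 83.5 in the naive libraries. It was higher in all 6 libraries from tumour-injected mice, without overlap (3.46 ± 0.42 and 2.79 ± 0.42, adjusted p = 0.000499 and 0.00173). Anxa1, whose protein annexin A1 holds back phospholipase A2, was higher by 2.65 ± 0.33 and 1.96 ± 0.33 (adjusted p = 0.000627 and 0.00315).

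The genes of this role called lower in both comparisons were Mgll, the lipase that releases arachidonic acid from 2-arachidonoylglycerol, and Pla2g2e, a secreted phospholipase. The phospholipase Pla2g6 (-3.33 ± 0.97, adjusted p = 0.0259) and the acyltransferase Lpcat3 (-2.70 ± 0.51, adjusted p = 0.00440) were also called lower between high and naive. Pla2g6 stood at 0, 16.7 and 5.12 in the high libraries and 47.0, 62.5 and 35.1 in the naive libraries. Lpcat3 stood at 29.6, 165 and 75.1 in the high libraries and 549, 419 and 458 in the naive libraries. In both genes high library 1 was the lowest. Mgll stood at 39.5, 70.4 and 51.2 in the high libraries, 68.7, 33.7 and 54.7 in the int libraries and 762, 904 and 511 in the naive libraries (-3.73 ± 0.40 and -3.79 ± 0.40, adjusted p = 0.000323 and 0.000462). Pla2g2e had 3 reads in the high group, 23 in the int group and 711 in the naive group, so by reads it was 363-fold lower in the high group (95% counting interval 124 to 1766) and 93.2-fold lower in the int group (61.6 to 148) than in naive. Its libraries did not overlap, with 0, 0.60 and 1.71 normalized counts in the high libraries, 2.15, 2.53 and 4.11 in the int libraries and 256, 346 and 297 in the naive libraries (adjusted p = 0.000130 and 0.000415). Pla2g4b and Pla2g10 had 0 reads in all 9 libraries.

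Of 8 tested synthases and reductases 0 were higher and 3 lower between high and naive (14.7% and 16.6% of all genes tested), and 0 were called between int and naive (22.3% of all genes tested). Ptges2, a second prostaglandin E synthase, stood at 2.19, 26.9 and 28.2 in the high libraries, 15.6, 45.1 and 23.1 in the int libraries and 97.5, 91.2 and 80.2 in the naive libraries, so it moved against Ptges. Its change between high and naive was -2.72 ± 0.82 (adjusted p = 0.0299), or -1.66 without high library 1, and was called under 15 of its 21 alternatives (range 0.0160 to 0.0810). The call was lost without each naive library in turn, as it was under edgeR (-2.03, and -2.11 with DESeq2). Cbr3, a carbonyl reductase, was at -2.97 ± 0.91 (adjusted p = 0.0320, called under 12 of 21 alternatives, range 0.0109 to 0.110), and at -2.10 without high library 1 and -2.31 with a pseudocount of 5.

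Among 5 tested receptors only Ptger3, the EP3 receptor, was called, between high and naive (3.33 ± 1.11, adjusted p = 0.0420), and 0 were called between int and naive. Over all genes tested, 31.3% and 22.3% were called in these comparisons. Ptger3 stood at 107, 10.7 and 45.2 normalized counts in the high libraries, 33.8, 9.27 and 13.6 in the int libraries and 14.9, 2.61 and 0 in the naive libraries, so that high library 2 lay below naive library 1, and it was called under 9 of its 21 alternatives (range 0.0164 to 0.141). It was not called without high library 1 (2.59) or naive library 3 (2.36), and was at 2.29 with a pseudocount of 5. Ptgdr2, the prostaglandin D2 receptor that marks eosinophils, had 0 reads in all 9 libraries, which allows up to 0.949 to 7.82 normalized counts depending on depth. Ptgdr, the other prostaglandin D2 receptor, had 2 reads in the high group, 0 in the int group and 1 in the naive group.

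Of 6 tested genes of transport and breakdown, 2 were higher and 0 lower in each comparison with naive. Over all genes tested, 14.7% were higher and 16.6% lower between high and naive, and 12% and 10.3% between int and naive. Slco2a1, the prostaglandin transporter that brings these lipids into cells for breakdown, stood at 873, 1176 and 1109 in the high libraries, 921, 452 and 1041 in the int libraries and 299, 503 and 231 in the naive libraries. It was higher by 1.68 ± 0.39 between high and naive (adjusted p = 0.0106) and by 1.21 ± 0.39 between int and naive (adjusted p = 0.0467), where int library 2 lay below naive library 2 and the call held under 11 of 21 alternatives (range 0.00693 to 0.178). Ptgr1, a prostaglandin reductase, was at 2.12 ± 0.74 and 2.52 ± 0.74 (adjusted p = 0.0497 and 0.0338), called under 6 and 13 of 21 alternatives (ranges 0.0226 to 0.148 and 0.0118 to 0.123).

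Of 10 genes whose products act on Ptgs2 transcription or its mRNA, 3 were higher between high and naive, 4 higher between int and naive and 0 lower in either, against 14.7% and 12% of all genes tested higher and 16.6% and 10.3% lower. Zfp36, which encodes tristetraprolin, a protein that speeds the decay of mRNAs including Ptgs2, stood at 8494, 6480.2 and 5459 in the high libraries, 5918, 6390.1 and 5688 in the int libraries and 1186, 1771 and 1399 in the naive libraries (2.22 ± 0.27 and 2.06 ± 0.27, adjusted p = 0.000534 and 0.000994). Il1a, an interleukin that induces Ptgs2, was 9.76-fold higher in the high libraries (3.29 ± 0.68, adjusted p = 0.00648) and 9.62-fold higher in the int libraries (3.27 ± 0.68, adjusted p = 0.00770). The first was 2.68 on the log2 scale without naive library 1. Nfkb1, a subunit of NF-kB, was 2.26-fold higher in the high libraries (1.17 ± 0.33, adjusted p = 0.0227) and 3.05-fold higher in the int libraries (1.61 ± 0.33, adjusted p = 0.00733).

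**Figure D4:**
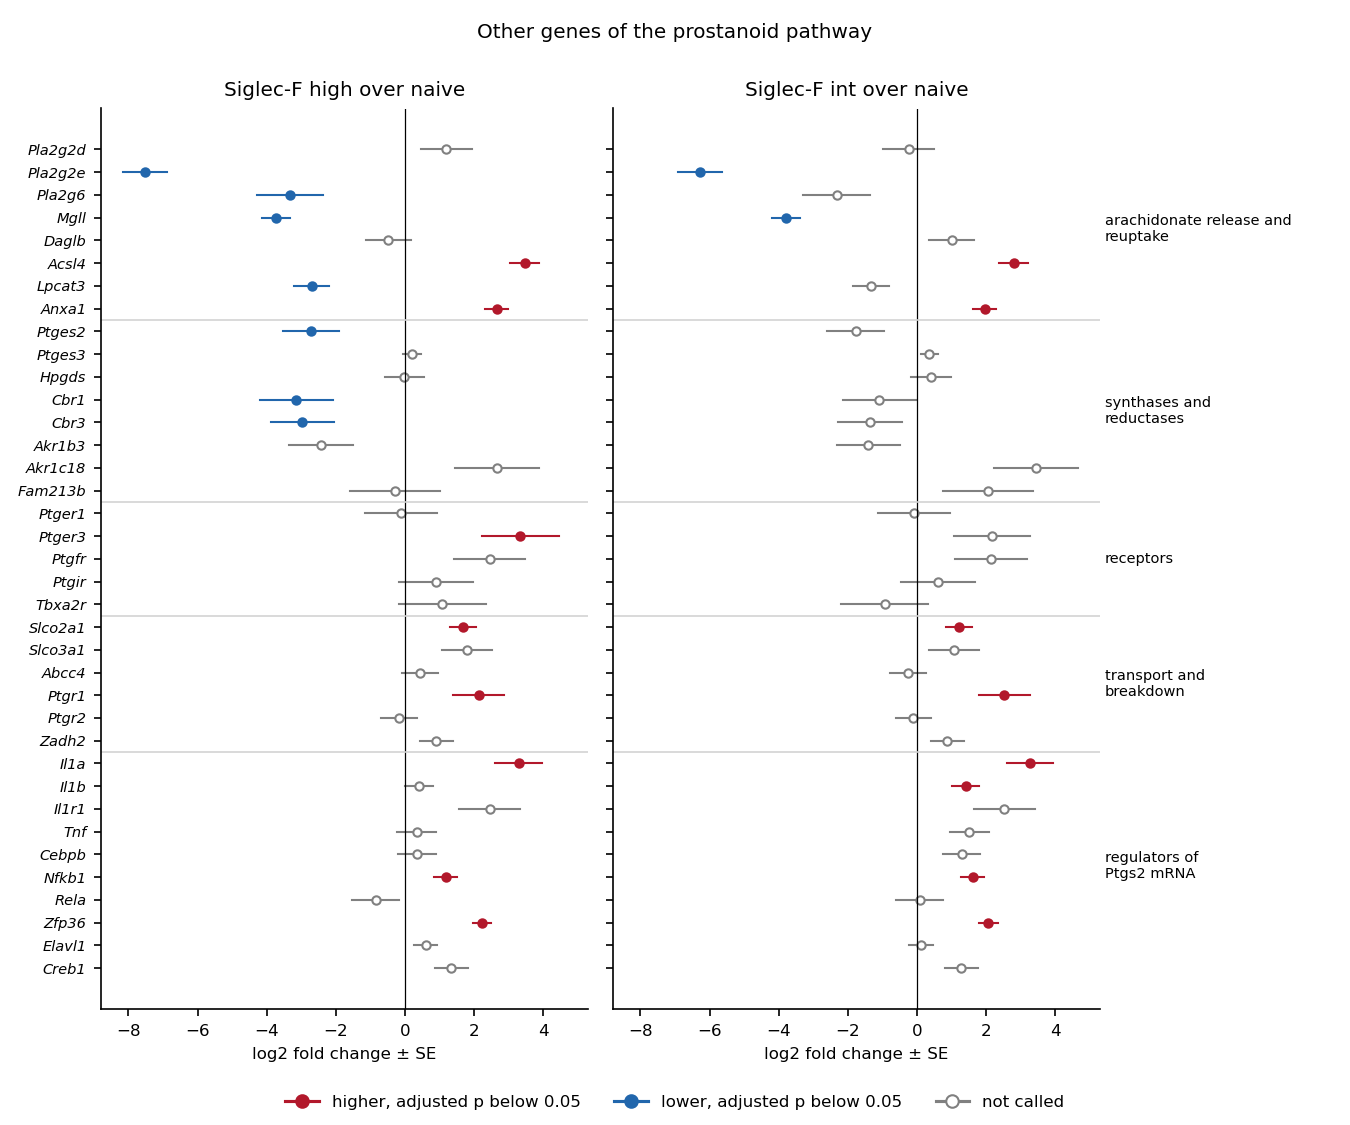
Log2 fold changes ± SE of the 37 tested genes of the pathway list are shown for Siglec-F high over naive and Siglec-F int over naive, grouped by role. Filled points were called, 8 higher and 7 lower on the left and 8 higher and 2 lower on the right.

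On chromosome 1, Pla2g4a and Ptgs2 are 138.74 kb apart, with 3 genes and 0 protein-coding genes between them. One of these, the long noncoding RNA Ptgs2os (chromosome 1, 150074873 to 150099963, minus strand), starts 67 bases from the start of Ptgs2 and runs the other way. Its normalized counts were 1.1, 20.3 and 22.2 in the high libraries, 18.3, 27.8 and 31.3 in the int libraries and 1.15, 0 and 0 in the naive libraries. The high group held 61 reads, the int group 199 and the naive group 1, read ratios to naive of 39.8 (95% counting interval 6.88 to 1597) and 66.0 (11.7 to 2619). High library 1, where Ptgs2 was highest, had Ptgs2os at the naive level.

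Over the 9 libraries, and among 8117 genes with a mean of at least 50, the pattern of Ptgs2 was most like those of Arhgap18 (Pearson r = 0.995), Nfkbiz (0.993), Fbxo11 (0.992), Sh3bgrl (0.989) and Atp11b (0.989). Nfkbiz, an NF-kB cofactor, averaged 1038 in the high libraries, 955 in the int libraries and 177 in the naive libraries. Among the prostaglandin genes, Pla2g4a came nearest to Ptgs2, with r = 0.970. The pattern of Ptgds was most like those of Spg21 (0.995), Slc45a2 (0.994), Gm37758 (0.993), Zfp575 (0.991) and Prdm16 (0.991). Slc45a2, a transporter of melanosomes that is also on the pigment list, averaged 41.2 in the high libraries, 31.3 in the int libraries and 5396 in the naive libraries. These correlations describe 9 libraries in 3 groups that share their scaling.

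Set per kilobase of exon, Ptgs2 was the first of the 10 genes in the high and int libraries, at 413 and 298 normalized counts per kb, and the fourth in the naive libraries, at 24.3. There Ptgds came first, at 6904 per kb, which placed it 48 of 13639 genes, against 3636 in the high and 3579 in the int libraries. Hpgd was the second in all 3 groups, at 205, 85.8 and 60.4 per kb. Pla2g4a was the third in the high, the fourth in the int and the last of the 10 in the naive libraries, at 84.9, 51.0 and 3.71 per kb. The labels name a Cell-seq protocol, and if its reads come from transcript ends, division by length would lower long transcripts in this order.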

How the data were processed

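Sorted mouse lung cells gave 9 RNA libraries in 3 groups of 3, each pooled from 3 to 4 mice. Per the labels' protocols, sort purity was above 98% and the RNA integrity number above 6.3. Per the submitters' processing notes, TopHat2 2.1.0, HTSeq and DESeq2 1.10.0 and the build GRCm38 were used. The signal deposited by the authors is the count of each gene over 1 size factor per library, kept to 2 decimals. Whole reads were recovered from the step between low values, for 100% of values up to 2000 reads within 0.05 read, with 0.316 to 2.61 normalized counts per read. Intervals and floors (3 reads) cover counting error only.

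Of 54670 entries, 63 with names turned into dates (0.219% of the total), 116 exact duplicates and 130 repeats of a name with its values were left out, and 99.9% of the 54361 kept matched GENCODE M21. Genes with a mean of at least 5 were tested with limma 3.58.1 (R 4.3.3) on log2(value + 1), two-sided, with a variance trend and all 9 libraries fitted together, and with Benjamini-Hochberg adjustment over 13642 genes. The genes and lists were chosen with earlier results of these data known, and the AP-1 and C/EBP motifs after the sequences were seen. Named were all 10 genes, Hpgds and Ptgdr2, up to 2 called genes per direction, role and comparison with the smallest adjusted p, and the 5 genes nearest to Ptgs2 and to Ptgds. Ptgs2os, Ptgdr, Pla2g4b, Pla2g10, Pla2g6 and Lpcat3 were named after their values were seen. Alternatives were other pseudocounts, filters and scalings, a fit of 2 groups, a replicate block, no trend, each library left out, and edgeR 4.0.16 and DESeq2 1.42.0 on recovered reads, which called 3550, 2875 and 0 and 4964, 4018 and 6 genes (high against naive, int against naive, high against int). Leaving out high library 1 with int library 2 was added after seeing the data. The fits were tested on simulated data with 200 of 13642 genes changed, in equal numbers up and down. In the real data 31.3% of genes were called between high and naive and 22.3% between int and naive. The shares that follow hold for the simulated setting and need not carry over to the real data. Of 4-fold changes 23% were recovered between high and naive, 28.7% between int and naive and 27.3% between high and int. Of 16-fold changes 75.7%, 74% and 73.3% were recovered. Of the genes called there, 6.38%, 8.07% and 2.28% had not been changed, so the share passed the 5% aimed for in both comparisons with naive. Libraries of a group differed by a chi-square per degree of freedom of 16.7 to 143, so none repeated another.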

Additional observations from a re-analysis of the deposited data

How the results depend on the processing

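Under all alternatives tried, the calls of Pla2g4a, Ptgs1, Ptgs2 and Ptgds against naive kept direction and threshold. The number of the 10 genes called was 5 to 7 between high and naive and 4 to 7 between int and naive over the removals of libraries. In a fit of only the 2 groups, 2509 genes were called between high and naive (pathway list 8) and 4808 between int and naive (pathway list 19). With high library 1 and int library 2 both out, 4623 were called between int and naive (pathway list 19), and DESeq2 called 17 of that list and 6 genes between high and int. Removing single libraries gave 2770 to 5101 genes between high and naive and 1401 to 5167 between int and naive (pathway list 7 to 20), with 1939 without naive 1, 1497 without int 1, 1401 without int 3 and 5167 without high 1. Equal totals gave 2141 higher and 1613 lower genes between high and naive and 2007 and 897 between int and naive, against 1999 and 2267 and 1634 and 1402 as deposited, and moved the median of all genes to 0.02 and 0.23. TMM factors gave 2281 and 1840, and 1929 and 1100, with medians of 0.04 and 0.14. The changes of the 10 genes against naive moved up by 0.07 to 0.27 under these scalings.

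Signs turned for changes that were not called. Hpgds between high and naive was 0.000163 with a pseudocount of 5, 0.12 with equal totals, 0.14 with TMM, 0.37 with edgeR and 0.35 with DESeq2, and -0.59 to 0.42 over the removals. Between high and int, Ptgs1 was 0.015 with edgeR and 0.057 with DESeq2. With high library 1 and int library 2 both out, Ptgs1 was 0.23, Ptgs2 -0.22, Ptgds 0.49 and Ptger2 0.35. The removals of single libraries gave -0.43 to 0.30 for Ptgs1, -0.30 to 0.61 for Ptgs2, -2.31 to 0.29 for Ptgds, -0.19 to 0.68 for Ptgis, -0.77 to 0.16 for Tbxas1, -2.32 to 0.0052 for Ptger2, -1.10 to 0.014 for Ptger4 and -0.99 to 0.020 for Hpgds. The cause was not tested.

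The main fit did not pair libraries by replicate number. With group means removed, same-numbered libraries had correlations of -0.03 to 0.14, 2 of 9 pairs were over 0.1, and 3 of 9 libraries correlated best with their own number. Between high and int, same-numbered libraries were at 0.12, 0.14 and 0.07, and differently numbered ones at -0.16 to -0.01. Whether high and int libraries of 1 number share a pool is not given in the sources used here and was not tested. The replicate block gave 4317, 3091 and 0 genes called in the 3 comparisons (high against naive, int against naive, high against int) and 7, 5 and 0 of the 10 genes, with Tbxas1 gained between high and naive (adjusted p = 0.0470). Of the other genes named, it ended the calls of Ptgr1 (adjusted p = 0.0693 between high and naive, 0.0511 between int and naive) and of Slco2a1 between int and naive (0.0693). Low reads in naive libraries limit the folds of Pla2g4a, Ptges and Ptger2.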
